A study of Mus musculus with 12 samples.

Results

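The TFCP2 and grainyhead family of transcription factors was represented by 6 genes, Tfcp2, Ubp1 and Tfcp2l1 of the TFCP2 subfamily and Grhl1, Grhl2 and Grhl3 of the grainyhead subfamily. Its members were taken from the deposited count table by gene symbol, which gave 6 of 34513 genes, 1 row for each. All 6 passed the expression filter that left 18338 genes for testing. The TFCP2 subfamily genes were expressed well enough in at least 1 line to be measured closely, and the grainyhead genes were low or near 0 throughout.

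The libraries came from cultures of 3 mouse lines, MelanA, B16F0 and B16F10, each with no treatment or with SX-682, an inhibitor of the chemokine receptors CXCR1 and CXCR2. MelanA is an immortalized, nontumorigenic melanocyte line, and B16F0 and B16F10 are melanoma lines of common origin, B16F10 having been selected for metastasis. Each of the 6 groups had 2 libraries, 12 in all, and the comparison asks how SX-682 acts on melanocytic cells without other cell types of a tumor. Each line is a single established line, the sources used here do not give how much SX-682 these cultures received or for how long, and the labels do not say that the 2 libraries of a group are separate cultures, so that p-values measure only the spread between these libraries.

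Proteins of this family share a DNA-binding domain related to that of p53 and bind as dimers or tetramers. TFCP2 (also LSF or CP2) and UBP1 (LBP-1a) are found in most cell types and can form mixed complexes, whereas TFCP2L1 (CRTR-1) is best known from naive pluripotent stem cells and from the collecting ducts of the kidney. GRHL1, GRHL2 and GRHL3 act in epithelia, where they maintain cell junctions and the skin barrier, and melanocytes, which arise from the neural crest, are not a cell type in which they are usually described.

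Between 48876982 and 85322092 reads were counted on genes in a library, with a median of 66943832.5, so that 3 counts, used as a floor, amounted to 0.0330 to 0.0623 CPM, counts scaled to 1e+06 per library. The 7 melanocyte markers checked (Mlana, Pmel, Tyr, Tyrp1, Dct, Mitf and Sox10) were detected in every group, but their summed level was 1344 to 1374 CPM in untreated MelanA against 18580 to 18664 CPM in untreated B16F0 and 24442 to 24470 CPM in untreated B16F10. Tyr, the tyrosinase gene, stood at 0.826 CPM in untreated MelanA, 515 CPM in untreated B16F0 and 68.1 CPM in untreated B16F10. Only Sox10 of these markers was higher in untreated MelanA, at 670 CPM against 453 CPM in untreated B16F0 and 586 CPM in untreated B16F10. Of the 5 leukocyte markers checked the summed level did not exceed 2.54 CPM in any library. In MelanA, 8 keratinocyte markers summed to 5.58 to 6.03 CPM without treatment and 3.38 to 3.66 CPM with SX-682, and 5 fibroblast markers to 115 to 117 CPM and 137 to 138 CPM. Most of the latter sum was Pdgfrb (102.5 CPM untreated and 130.5 CPM with SX-682), while Lum went from 7.10 to 1.33 CPM and Dcn from 2.50 to 0.974 CPM. In B16F0 the keratinocyte markers summed to 0 CPM untreated and 0.0152 to 0.104 CPM with SX-682, and in B16F10 to 0.360 to 0.496 CPM and 0.342 to 0.841 CPM. The fibroblast sums were 18.9 to 20.3 CPM and 21.2 to 23.3 CPM in B16F0, and 2.46 to 2.58 CPM and 3.46 to 3.59 CPM in B16F10. The part of these other markers in the results below was not tested.

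The genes lie on 5 chromosomes of the mouse genome (GRCm38). Tfcp2 (ENSMUSG00000009733.9) is at chr15:100498012-100552008 on the - strand and Grhl2 (ENSMUSG00000022286.16) at chr15:37233036-37363569 on the + strand of the same chromosome. Ubp1 (ENSMUSG00000009741.15) is at chr9:113930934-113977202, Tfcp2l1 (ENSMUSG00000026380.10) at chr1:118627945-118685168 and Grhl1 (ENSMUSG00000020656.16) at chr12:24572283-24617391, all on the + strand. Grhl3 (ENSMUSG00000037188.7) is at chr4:135541888-135573630 on the - strand. No stretch of 50 bases was shared between transcripts of different members. Ubp1 shares 12.9% of its exonic bases with other genes, most of them (10.4%) with Fbxl2 on the opposite strand, and the strand setting of the counting is not given in the sources used here. Fbxl2 held 447 to 1470 counts in a library and its log2 fold change with SX-682 was 0.17 in MelanA, 0.12 in B16F0 and 0.05 in B16F10, none passing edgeR's quasi-likelihood test (adjusted p = 0.0767, 0.312 and 0.662). Transcripts of other genes shared 6.50% of the 50-base stretches of Tfcp2 and 10.6% of those of Ubp1, and reads from these parts cannot be assigned with certainty.

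The 250 bases before the transcription start are shown for 3 members with different patterns: Tfcp2l1, expressed in MelanA and near 0 in the B16 lines; Tfcp2, expressed in every library; and Grhl3, highest in B16F0. They are taken from RefSeq on GRCm38.p6 and read 5′ to 3′ on the strand of the gene, at chr1:118627695-118627944 (+) for Tfcp2l1, chr15:100552009-100552258 (-) for Tfcp2 and chr4:135573633-135573882 (-) for Grhl3. Capitals mark a match to the bipartite TFCP2 motif, a pair of short core elements spaced by a turn of the helix (Tfcp2l1 and Grhl3), or to the TATA box letters TATAAA (Tfcp2l1).
Tfcp2l1: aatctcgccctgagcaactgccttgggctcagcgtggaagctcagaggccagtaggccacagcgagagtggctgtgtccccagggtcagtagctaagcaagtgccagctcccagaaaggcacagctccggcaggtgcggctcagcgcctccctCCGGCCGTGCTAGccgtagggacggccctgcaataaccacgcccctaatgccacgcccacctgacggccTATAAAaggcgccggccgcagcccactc
Tfcp2: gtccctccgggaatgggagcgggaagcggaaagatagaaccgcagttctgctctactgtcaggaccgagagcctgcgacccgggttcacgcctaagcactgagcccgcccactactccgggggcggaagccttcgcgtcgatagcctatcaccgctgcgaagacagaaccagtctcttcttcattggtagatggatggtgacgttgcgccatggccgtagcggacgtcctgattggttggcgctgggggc
Grhl3: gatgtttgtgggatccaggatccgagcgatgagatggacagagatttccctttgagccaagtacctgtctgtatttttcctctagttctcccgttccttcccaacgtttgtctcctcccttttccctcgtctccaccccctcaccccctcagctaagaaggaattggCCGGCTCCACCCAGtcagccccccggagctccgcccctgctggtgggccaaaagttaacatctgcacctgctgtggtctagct
Both strands were searched in these windows and in all 32851 RefSeq windows of the same length. Only the Tfcp2l1 window of these 3 held TATAAA, at -28 to -23 from the start (-1 being the base next to it), and 12.4% of all windows held it. The bipartite TFCP2 motif was found at -97 to -85 in Tfcp2l1 and at -83 to -70 in Grhl3, but 64.6% of all windows held a match to this loose motif. The grainyhead consensus letters AACCGGTT and AACTGGTT were in none of the 3 windows and in 0.116% and 0.654% of all windows. The shorter core CCGG, which lies inside AACCGGTT and overlaps some bipartite matches, occurred 3 times in Tfcp2, 3 times in Tfcp2l1 and 2 times in Grhl3, and in 47.1% of all windows. The C and G content was 65.2% in Tfcp2l1, 61.6% in Tfcp2 and 56.0% in Grhl3 against a median of 52.4%, and the ratio of observed to expected CpG was 0.609, 0.932 and 0.431 against a median of 0.373. A match of letters is a description of the window and not a binding site.

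Per length of transcript, the family consisted almost wholly of Ubp1 and Tfcp2. In CPM per kb of exon, Ubp1 made up 60.5% to 75.4% of the summed level of the 6 members and Tfcp2 18.7% to 37.7%, in the same order in all 6 groups. Tfcp2l1 ranked next in MelanA, with 5.10% of the sum without treatment and 8.32% with SX-682, and last in untreated B16F0 and untreated B16F10 (0.0447% and 0.00392%). In both B16 lines Grhl3 took its place, with 2.22% in untreated B16F0 and 0.562% in untreated B16F10. The summed grainyhead level was 0.130 ± 0.056 CPM per kb (SD, n = 2) in untreated MelanA, 0.578 ± 0.0033 in untreated B16F0 and 0.167 ± 0.050 in untreated B16F10, against sums of 18.0 to 21.2 CPM per kb for the TFCP2 subfamily in the same groups. All levels are of bulk RNA, in which fewer cells expressing a gene and less RNA per cell cannot be told apart.

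**Figure D1:**
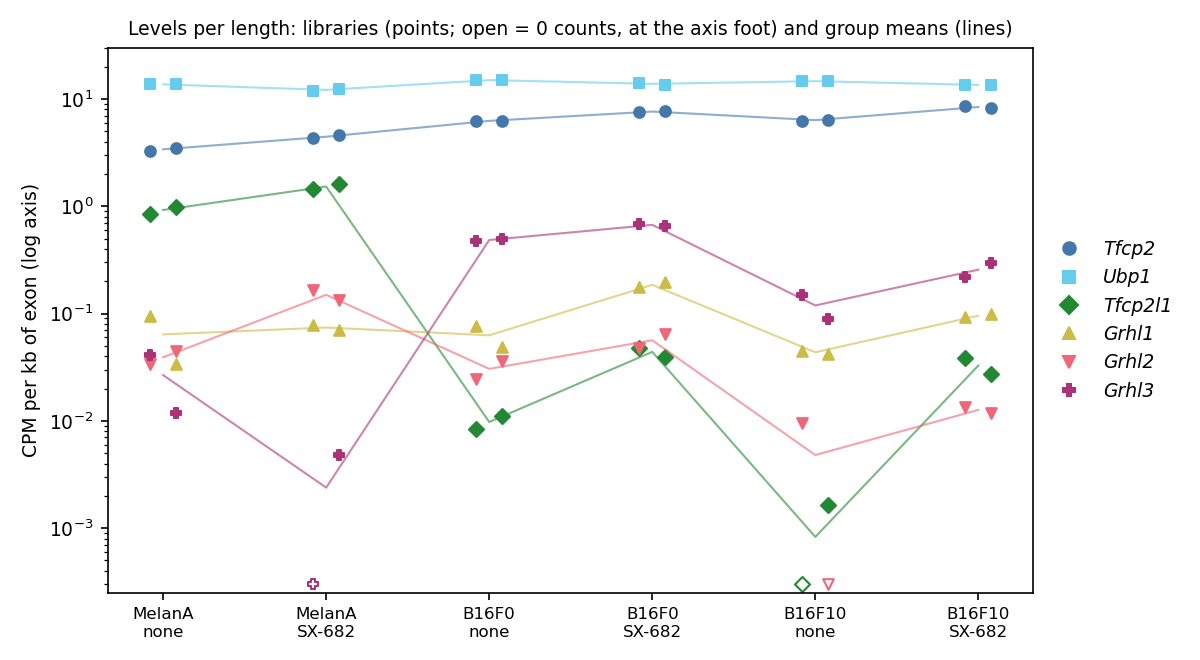
Level of each family member in CPM per kb of exon (log axis) in the 6 groups, with a point for each library, open points for libraries with 0 counts drawn at the foot of the axis, and lines joining group means. Ubp1 and Tfcp2 stay at the top of every group, while Tfcp2l1 drops from 0.923 CPM per kb in untreated MelanA to 0.00976 in untreated B16F0 and Grhl3 is higher there.

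With SX-682, 3 members rose and 2 fell in MelanA, 3 rose and 1 fell in B16F0, and 3 rose and 1 fell in B16F10, at an adjusted p under 0.05 in edgeR's quasi-likelihood test. Of all genes tested, 48.2% passed in MelanA (23.4% raised and 24.7% lowered), 50.1% in B16F0 (25.1% and 25.0%) and 50.8% in B16F10 (25.5% and 25.3%), so a call by itself is common here. Tfcp2 and Tfcp2l1 rose in all 3 lines, as did 11.3% of genes, and Ubp1 fell in all 3, as did 11.7%. Grhl1 rose in B16F0, Grhl2 in MelanA and Grhl3 in B16F10, and Grhl3 fell in MelanA, where it was near 0 and entered the test through its level in the B16 lines.

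**Figure D2:**
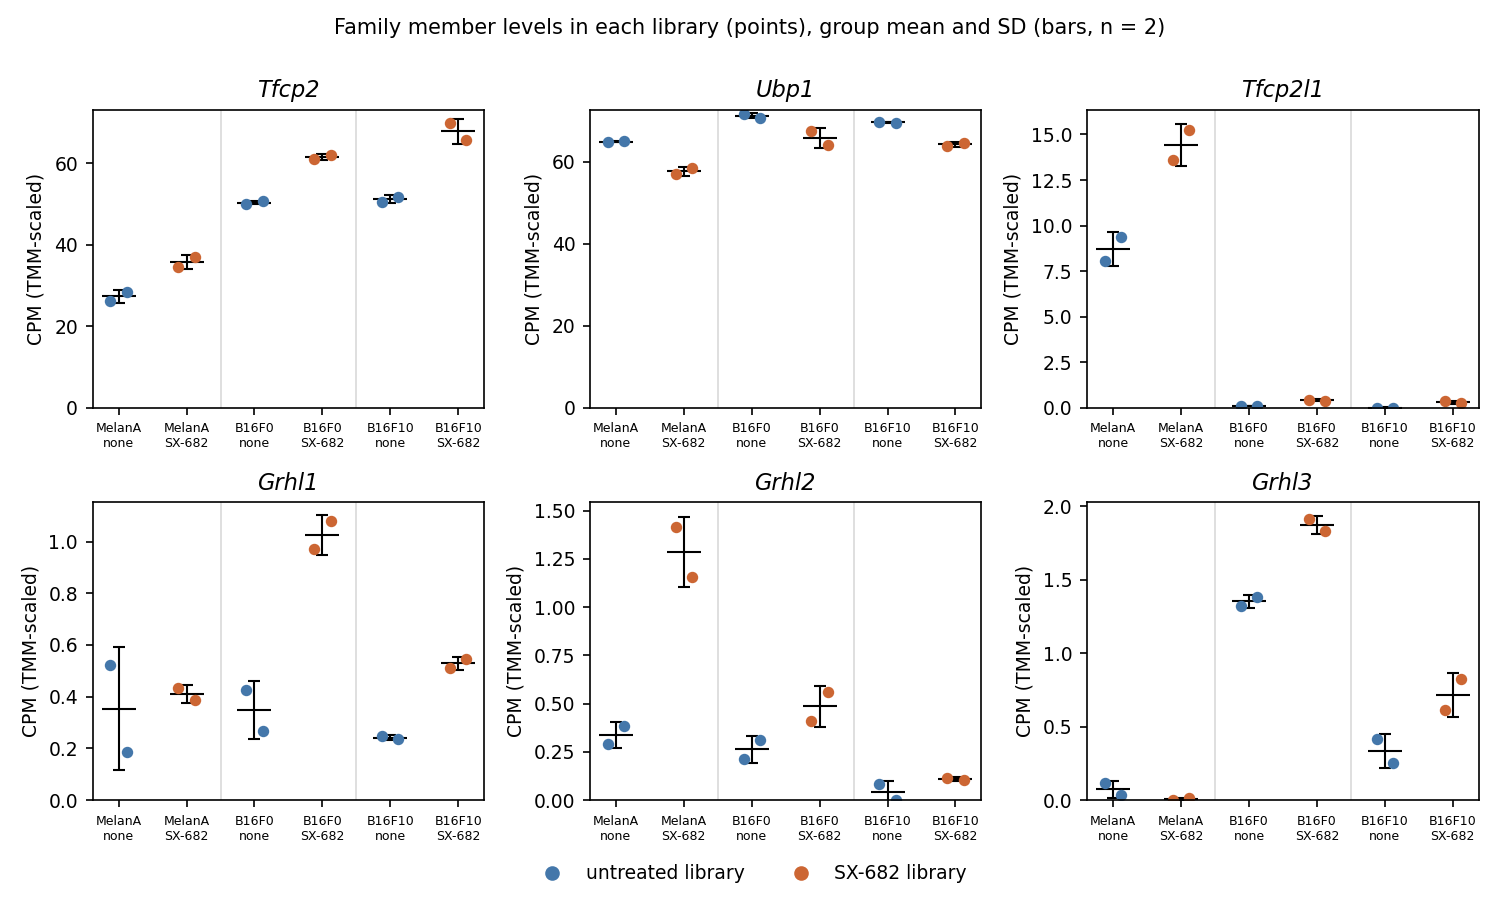
CPM of each member in every library, with blue points for untreated and orange points for SX-682 libraries and bars for the group mean and SD (n = 2), each panel on its own linear axis from 0. Tfcp2 is higher and Ubp1 lower with SX-682 in each line, and Tfcp2l1 is visible above the axis mainly in MelanA.

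Tfcp2, the founding member and a regulator of thymidylate synthase at entry into S phase, rose in all 3 lines by like amounts. In MelanA its counts were 2270 and 2584 untreated and 2472 and 2780 with SX-682, or 27.4 ± 1.52 and 35.9 ± 1.67 CPM (SD, n = 2). In B16F0 they were 3753 and 3406 untreated and 4022 and 2985 with SX-682, or 50.4 ± 0.391 and 61.5 ± 0.679 CPM. In B16F10 they were 3054 and 3314 untreated and 4243 and 3845 with SX-682, or 51.2 ± 0.952 and 67.9 ± 2.99 CPM. Raw counts overlapped between groups in MelanA and B16F0, but after scaling to depth both SX-682 libraries were above both controls in every line, as was the case, in either direction, for 72.7% of genes in MelanA, 70.4% in B16F0 and 69.4% in B16F10 and for 5, 6 and 6 of the 6 members. The log2 fold change was 0.39 in MelanA (SE 0.048, adjusted p = 4.78e-08), 0.29 in B16F0 (SE 0.045, adjusted p = 3.09e-06) and 0.41 in B16F10 (SE 0.045, adjusted p = 5.29e-09) by edgeR's quasi-likelihood test. These are rises of 31.0%, 22.1% and 32.6%, and they did not differ detectably among the lines (adjusted p = 0.242 for the interaction in the same edgeR model). The untreated B16 lines already stood above MelanA with SX-682, and B16F0 and B16F10 overlapped with each other when untreated.

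Ubp1, the closest relative of Tfcp2 and the most abundant member per length, went the other way. In MelanA its counts were 5607 and 5908 untreated and 4064 and 4397 with SX-682, or 65.0 ± 0.065 and 57.8 ± 1.11 CPM (SD, n = 2). In B16F0 they were 5374 and 4762 untreated and 4449 and 3084 with SX-682, or 71.3 ± 0.650 and 65.8 ± 2.45 CPM. In B16F10 they were 4214 and 4451 untreated and 3875 and 3783 with SX-682, or 69.7 ± 0.034 and 64.3 ± 0.552 CPM. After scaling, both SX-682 libraries were below both controls in each line. The log2 fold changes were small, -0.17 in MelanA (SE 0.036, adjusted p = 2.07e-04), -0.11 in B16F0 (SE 0.037, adjusted p = 0.0102) and -0.12 in B16F10 (SE 0.037, adjusted p = 0.00912), and did not differ detectably among the lines (interaction adjusted p = 0.593, all by edgeR's quasi-likelihood test). They amount to -11.1%, -7.57% and -7.71%. The call in B16F0 was lost without untreated library 1 (log2 fold change -0.10, adjusted p = 0.0708) and without SX-682 library 2 (-0.08, adjusted p = 0.151).

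Ubp1 and Tfcp2 moved in opposite directions, and their balance changed. In MelanA, Ubp1 exceeded Tfcp2 per kb by 4.19 and 3.88 times in the untreated libraries and 2.79 and 2.68 times with SX-682. In B16F0 these ratios were 2.43 and 2.37 untreated and 1.87 and 1.75 with SX-682. In B16F10 they were 2.34 and 2.28 untreated and 1.55 and 1.67 with SX-682. The ratio thus fell in each line without overlap of the libraries, and it was higher in untreated MelanA than in every other group. An exact two-sided permutation test of 2 against 2 libraries cannot give a p below 0.333, and none is given for the ratio. The summed level of Tfcp2, Ubp1 and Tfcp2l1 was 18.0 ± 0.299 and 18.1 ± 0.564 CPM per kb (SD, n = 2) in MelanA without and with SX-682 and 21.2 ± 0.0863 and 21.5 ± 0.437 CPM per kb in B16F0, with overlapping libraries in both. In B16F10 it was 21.0 ± 0.112 and 22.0 ± 0.263 CPM per kb, without overlap. Ubp1 and Tfcp2 alone summed to 17.1 ± 0.202 and 16.6 ± 0.441 CPM per kb in MelanA. There the higher SX-682 library (16.906) was barely below the lower control (16.912), a gap much smaller than the SD. In B16F0 they summed to 21.2 ± 0.0881 and 21.5 ± 0.431, with overlap. In B16F10 they summed to 21.0 ± 0.111 and 21.9 ± 0.255, with both SX-682 libraries above the controls.

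**Figure D3:**
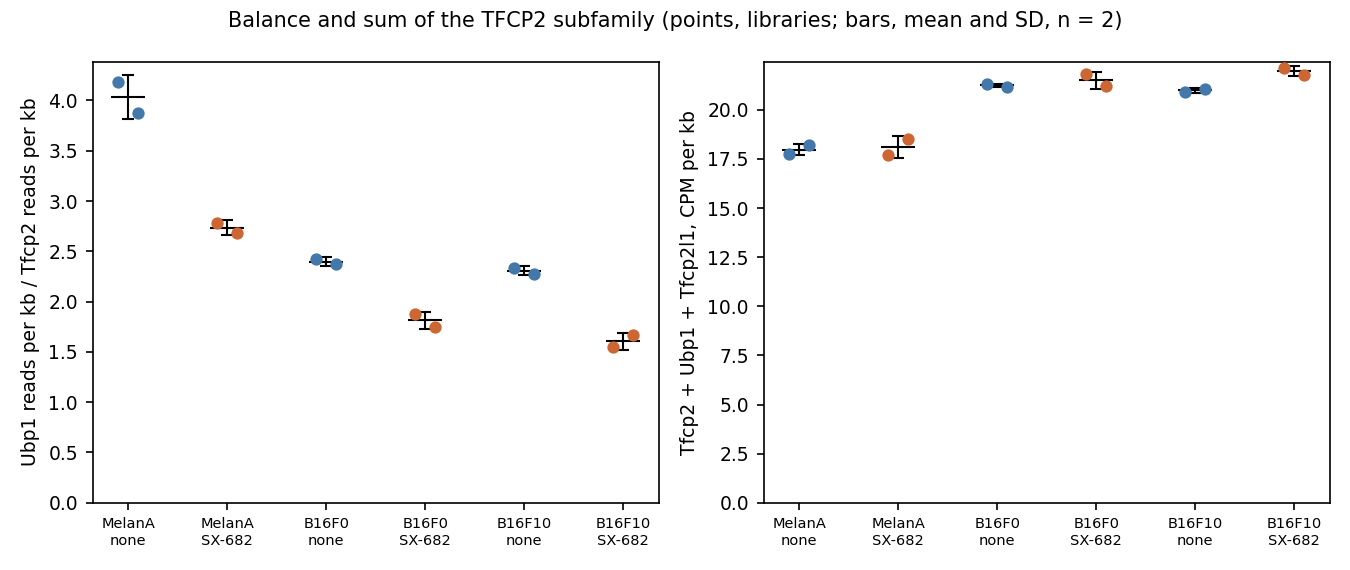
Ratio of Ubp1 to Tfcp2 reads per kb (left) and summed level of the TFCP2 subfamily in CPM per kb (right) in every library, with blue points for untreated and orange points for SX-682 libraries and bars for mean and SD (n = 2). The ratio is lower with SX-682 in each line, from 4.03 to 2.73 in MelanA, while the sum there stays at 18.0 and 18.1 CPM per kb.

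Tfcp2l1, the pluripotency and kidney factor of the family, was expressed in MelanA and rose there from an appreciable level. Its counts in MelanA were 696 and 850 untreated and 969 and 1143 with SX-682, or 8.71 ± 0.916 and 14.4 ± 1.16 CPM (SD, n = 2). Both treated libraries were above both controls, and the log2 fold change was 0.73 (SE 0.12, 95% interval 0.48 to 0.97, adjusted p = 7.52e-06 in edgeR's quasi-likelihood test), a 1.65-fold rise. In B16F0, 6 and 7 counts became 30 and 18, and in B16F10, 0 and 1 counts became 22 and 15. These values, which drew attention to the gene in earlier work on the same libraries and are not independent evidence, correspond to log2 fold changes of 2.18 (SE 0.42, adjusted p = 5.93e-05) and 4.99 (SE 0.76, adjusted p = 1.88e-06) in the same edgeR fit. The B16F10 value rests on 1 control count: the ratio of 37 to 1 summed counts after scaling was 38.6 with a 95% counting interval of 6.52 to 1567, and the fitted log2 value was 3.19 with a prior count of 2, 4.16 without untreated library 1 and 7.43 without untreated library 2.

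The order of the lines by fold change was the reverse of their order by untreated level. A fold change has the untreated level as its denominator, so these orders are not independent. SX-682 added 5.70 CPM of Tfcp2l1 in MelanA, 0.323 CPM in B16F0 and 0.302 CPM in B16F10. With SX-682 the B16F0 and B16F10 means were still 4.76% and 3.56% of the untreated MelanA mean. After scaling, the 6 groups did not overlap at any step of their order by mean. That order ran from MelanA with SX-682 through untreated MelanA, B16F0 with SX-682, B16F10 with SX-682 and untreated B16F0 down to untreated B16F10. The step between the SX-682 groups of B16F0 and B16F10 was only 0.374 against 0.363 CPM. Their raw counts overlapped, and this step was not tested. How many other genes separate at every step of such an order was not computed. By edgeR's quasi-likelihood test the log2 response exceeded that of MelanA by 1.45 in B16F0 (SE 0.45, adjusted p = 0.0109) and by 4.26 in B16F10 (SE 0.83, adjusted p = 1.3e-04). The difference between the B16 lines, 2.81 (SE 1.10, 95% interval 0.56 to 5.06), did not pass (adjusted p = 0.0534). Of all genes, 34.4%, 33.8% and 30.3% passed these respective comparisons of response.

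Grhl1, which controls desmosomal cadherins in the epidermis, was detected at a low level in every library. Its counts in MelanA were 45 and 17 untreated and 31 and 29 with SX-682, or 0.354 ± 0.236 and 0.411 ± 0.034 CPM (SD, n = 2). In B16F0 they were 32 and 18 untreated and 64 and 52 with SX-682, or 0.347 ± 0.113 and 1.03 ± 0.077 CPM. In B16F10 they were 15 and 15 untreated and 31 and 32 with SX-682, or 0.241 ± 0.0095 and 0.529 ± 0.025 CPM. The SX-682 libraries lay between the controls in MelanA and above them in both B16 lines. The log2 fold change was 1.55 in B16F0 (SE 0.43, adjusted p = 0.0031), 1.13 in B16F10 (SE 0.48, adjusted p = 0.0502) and 0.22 in MelanA (SE 0.44, adjusted p = 0.726) by edgeR's quasi-likelihood test. The call in B16F0 was lost without untreated library 2 (1.25, adjusted p = 0.0512), and the value in B16F10 was close enough to the threshold to pass in 6 of 19 alternative analyses (adjusted p from 0.0196 to 0.156). Without untreated library 1 of MelanA, the higher of the pair, the MelanA value became 1.13 (adjusted p = 0.109), and without library 2 it was -0.34 (adjusted p = 0.619). A difference of response among the lines was not detected (interaction adjusted p = 0.181), except without untreated MelanA library 2 (adjusted p = 0.0294).

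Grhl2, which sustains E-cadherin and claudin expression in epithelia, passed the test for SX-682 in MelanA, where 25 and 35 counts became 101 and 87, or 0.337 ± 0.068 and 1.29 ± 0.182 CPM (SD, n = 2). In B16F0 the counts were 16 and 21 untreated and 27 and 27 with SX-682, or 0.263 ± 0.070 and 0.485 ± 0.107 CPM. In B16F10 they were 5 and 0 untreated and 7 and 6 with SX-682, or 0.0413 ± 0.058 and 0.109 ± 0.0091 CPM, near 0. The SX-682 libraries were above the controls in every line. The log2 fold change was 1.92 in MelanA (SE 0.42, 95% interval 1.06 to 2.79, adjusted p = 3.3e-04 in edgeR's quasi-likelihood test), a 3.79-fold rise that passed under all 18 alternatives in which it could be computed. It was 0.87 in B16F0 (SE 0.49, adjusted p = 0.144) and 1.40 in B16F10 (SE 0.85, adjusted p = 0.182), and a difference among the lines was not detected (interaction adjusted p = 0.399). The B16F10 value was set by single controls: it was 5.94 (adjusted p = 0.00959) without untreated library 1, which leaves a control of 0 counts, and 0.39 (adjusted p = 0.781) without untreated library 2.

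Grhl3, needed for neural tube closure and the skin barrier, was the only grainyhead gene above 50 counts in an untreated library. In B16F0 its counts were 99 and 93 untreated and 126 and 88 with SX-682, or 1.35 ± 0.043 and 1.87 ± 0.060 CPM (SD, n = 2). In B16F10 they were 25 and 16 untreated and 37 and 48 with SX-682, or 0.332 ± 0.115 and 0.715 ± 0.149 CPM. In MelanA it was near 0, with 10 and 3 counts untreated and 0 and 1 with SX-682. After scaling, the SX-682 libraries were above the controls in both B16 lines and below them in MelanA. By edgeR's quasi-likelihood test the log2 fold change was 0.47 in B16F0 (SE 0.32, adjusted p = 0.246), 1.11 in B16F10 (SE 0.40, adjusted p = 0.0221) and -3.12 in MelanA (SE 1.10, adjusted p = 0.0189). In B16F10 the call was lost without untreated library 2 (0.78, adjusted p = 0.2) and without SX-682 library 2 (0.88, adjusted p = 0.145).

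The MelanA fall of Grhl3, which was not tested when MelanA was filtered and fitted on its own, rests on 13 counts against 1, a ratio of 0.0931 after scaling with a 95% counting interval of 0.00219 to 0.620. It did not pass in DESeq2 (adjusted p = 0.0563), without untreated library 1 (-2.00, adjusted p = 0.287) or without SX-682 library 1 (-2.30, adjusted p = 0.139), and the fitted value was -5.36 without SX-682 library 2, -3.75 without untreated library 2 and -1.51 with a prior count of 2. The response in MelanA differed from that in B16F0 by 3.59 (SE 1.14, adjusted p = 0.0135) and from that in B16F10 by 4.23 (SE 1.14, adjusted p = 0.00408) on the log2 scale in the edgeR fit, and both differences rest on the same MelanA counts. Across the 3 lines, the interaction test passed for Tfcp2l1 (adjusted p = 5.29e-05) and Grhl3 (adjusted p = 0.01) and not for the other 4 members, while 47.4% of all genes passed it.

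**Figure D4:**
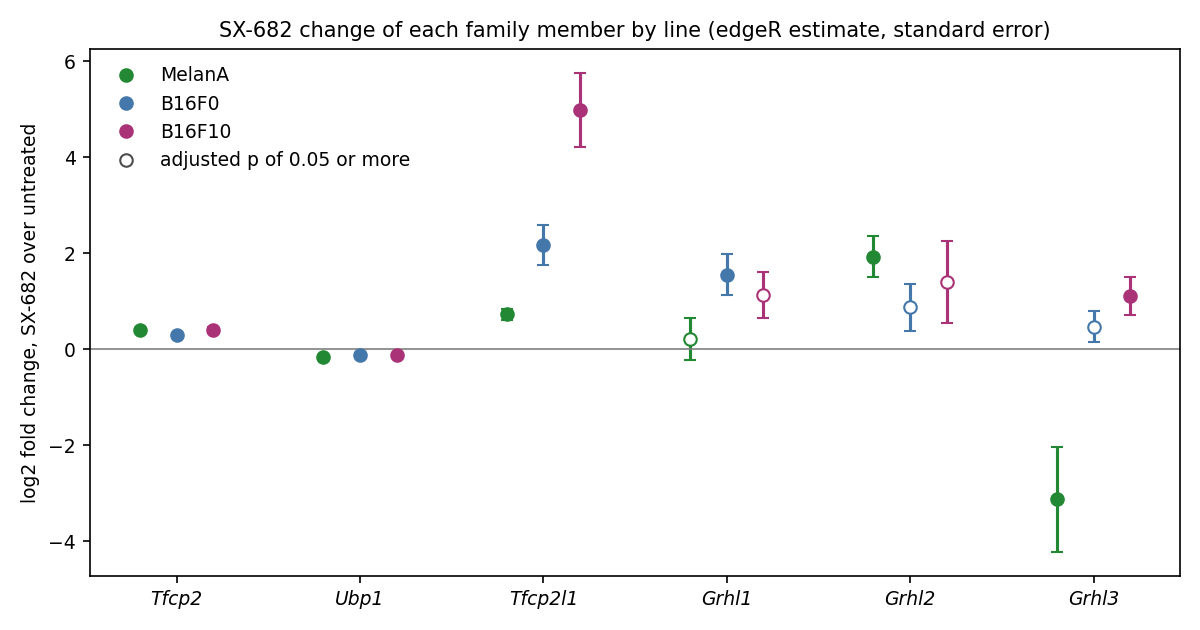
Log2 fold change of each member with SX-682 over untreated in MelanA (green), B16F0 (blue) and B16F10 (purple) as fitted by edgeR, with bars for the standard error and open points for an adjusted p of 0.05 or more. Tfcp2 and Ubp1 show narrow bars and like values in the 3 lines, whereas Tfcp2l1 runs from 0.73 in MelanA to 4.99 in B16F10 and Grhl3 stands at -3.12 in MelanA. At few counts the bars, derived from the F statistic, can be smaller than the counting error alone.

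Among the untreated lines, the members most unequal in level were Tfcp2l1 and Grhl3. Tfcp2l1 was lower than in MelanA, at a fitted log2 difference of -6.55 in B16F0 (SE 0.24, adjusted p = 8.95e-21), from 1546 summed counts to 13. The scaled ratio of MelanA to B16F0 was 95.4 with a 95% counting interval of 55.6 to 180, which is wider than this SE implies. In B16F10 the fitted difference was -9.79 (adjusted p = 6.13e-21), but with 1 summed count the scaled ratio of MelanA to B16F10 was 1085 with a 95% counting interval of 195 to 42895, and the fitted value ranged from -12.23 without untreated B16F10 library 2 to -7.88 with a prior count of 2. Grhl3 was higher than in MelanA by 4.17 in B16F0 (SE 0.45, adjusted p = 1.58e-09) and by 2.14 in B16F10 (SE 0.53, adjusted p = 6.47e-04), against 13 summed counts in MelanA. Without untreated MelanA library 1 these were 5.28 and 3.26, and without library 2 they were 3.53 and 1.50. All adjusted p-values here are from edgeR's quasi-likelihood test.

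Tfcp2 was also higher in the untreated melanoma lines, by 0.88 in B16F0 (SE 0.047, adjusted p = 1.14e-16) and 0.90 in B16F10 (SE 0.047, adjusted p = 8.11e-17), or 1.84-fold and 1.87-fold. Ubp1 differed little, by 0.13 in B16F0 (SE 0.035, adjusted p = 0.00125) and 0.10 in B16F10 (SE 0.036, adjusted p = 0.0134) in the edgeR fit, and the latter was not called by DESeq2 (0.07, adjusted p = 0.118), with RLE scaling (0.07, adjusted p = 0.076) or with at least 10 counts in every library (0.03, adjusted p = 0.365). Grhl2 was lower in B16F10, at a log2 difference of -3.01 from MelanA (SE 0.68, adjusted p = 2.58e-04) and of -2.64 from B16F0 (SE 0.72, adjusted p = 0.00203). Both rest on 5 summed counts in B16F10: without untreated B16F10 library 1 they were -7.56 and -7.19, and without library 2 they were -2.00 and -1.63, the last with an adjusted p of 0.055. Grhl1 did not pass in any of these comparisons. In all, 3 members were higher and 1 lower in B16F0 than in MelanA, where 35.3% of genes were called higher and 40.6% lower (75.9% in either direction). In B16F10, 3 were higher and 2 lower than in MelanA, where 33.4% were called higher and 40.8% lower (74.2% in either direction). The libraries of 4 and 5 members did not overlap in these comparisons, as for 87.4% and 85.6% of genes.

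Between the untreated B16 lines, 3 members were lower in B16F10, Tfcp2l1 (-3.24, adjusted p = 0.00619), Grhl2 and Grhl3 (-2.03, SE 0.38, adjusted p = 2.9e-05), where 62.0% of all genes passed (31.2% lower and 30.8% higher). The libraries of 5 members did not overlap, as for 77.0% of genes. No member was higher in edgeR's quasi-likelihood test, with 0 at an unadjusted p under 0.05 and 0 by DESeq2. The Tfcp2l1 value compares 1 summed count with 13, a scaled ratio of 0.0879 with a counting interval of 0.00207 to 0.585, and was not called without untreated B16F10 library 1 (-2.41, adjusted p = 0.0707), while without library 2 it was -5.68. Tfcp2 differed between the B16 lines by 0.02 (95% interval -0.07 to 0.12, adjusted p = 0.7) and Ubp1 by -0.03 (95% interval -0.11 to 0.04, adjusted p = 0.45).

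Genes linked to the family by its known biology were then followed. The counts for each list stand beside the shares of all genes tested. With SX-682, 23.4% were raised and 24.7% lowered in MelanA, 25.1% and 25.0% in B16F0, and 25.5% and 25.3% in B16F10. TFCP2L1 is part of the naive pluripotency circuit, downstream of LIF and STAT3. Of 20 genes of this circuit 10 passed the filter, and Nanog, Esrrb, Pou5f1 and Sox2 were not among them, with at most 8, 10, 1 and 1 counts in any library. Of the 10, 4 rose and 3 fell in MelanA, 4 rose and 4 fell in B16F0, and 5 rose and 3 fell in B16F10, with median log2 fold changes of 0.09, -0.23 and 0.05 against 0 for all genes tested in each line. The number that fell was 1 in MelanA without untreated library 2 and 1 in B16F10 without untreated library 2. Sall4, among those that fell in B16F10 and named after its values were seen, was near 0 there. It stood at 0.0791 CPM untreated and 0 CPM with SX-682, and entered the test through untreated B16F0 (2.57 CPM) and B16F0 with SX-682 (2.42 CPM). Klf5, a Kruppel-like factor of the circuit, had log2 fold changes of 0.04 in MelanA (adjusted p = 0.763), 0.85 in B16F0 (adjusted p = 4.16e-06) and 1.23 in B16F10 (adjusted p = 3.22e-05). Its relative Klf2 fell in each line, with log2 fold changes of -0.32, -1.93 and -0.79 (adjusted p = 0.00507, 1.19e-09 and 0.00353), and Klf4 rose by 0.68 in MelanA (adjusted p = 8.13e-13) and 0.56 in B16F10 (adjusted p = 1.24e-04) and fell by 0.47 in B16F0 (adjusted p = 1.71e-05). Socs3, the feedback inhibitor of STAT3 signaling, rose by 0.28 in MelanA (adjusted p = 7.67e-06) and fell in the B16 lines, at -0.92 and -0.29 in B16F0 and B16F10 (adjusted p = 2.96e-11 and 1.42e-04), all by edgeR's quasi-likelihood test.

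Of 13 described targets and partners of TFCP2 and UBP1, 10 were tested. In MelanA 5 rose and 3 fell, in B16F0 5 rose and 5 fell, and in B16F10 5 rose and 3 fell, with medians of 0.07, 0.14 and 0.20. Of all genes tested, 48.2%, 50.1% and 50.8% were called in these lines in either direction. Tyms, the thymidylate synthase gene and best known target of TFCP2, fell in every line, with log2 fold changes of -0.52, -0.90 and -0.90 in MelanA, B16F0 and B16F10 (adjusted p = 7.04e-13, 1.9e-17 and 1.28e-17 in edgeR's quasi-likelihood test), while Tfcp2 itself rose. The fibronectin gene Fn1 rose by 0.17, 0.71 and 0.83, and the Polycomb partner Rnf2 by 0.25, 0.57 and 0.44 in the same order of lines, all passing. Spp1, the osteopontin gene, rose by 0.54 in MelanA and fell by 0.82 in B16F0 and by 0.77 in B16F10.

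Epithelial genes that grainyhead factors are known to sustain were at low levels, apart from Arhgef19. Of 22 such genes 13 were tested, and 2 rose and 1 fell in MelanA, 2 rose and 0 fell in B16F0, and 0 rose and 0 fell in B16F10, with medians of 0.14, 0.27 and 0. All genes tested were called in either direction at shares of 48.2%, 50.1% and 50.8% in these lines. For the counts of 0 in edgeR's quasi-likelihood test, 0 fell in B16F0 and 1 rose and 0 fell in B16F10 at an unadjusted p under 0.05, and DESeq2 called none of these. Epcam was near 0 in MelanA, at 0 CPM untreated and 0.0484 CPM with SX-682. It was higher in B16F0, at 0.249 CPM untreated and 0.397 CPM with SX-682. Epcam and Cldn4 were the 2 that rose in MelanA, named after their values were seen, with at most 29 and 49 counts in any library. That count was 0 without untreated library 1, untreated library 2 or SX-682 library 1 of MelanA and 1 without SX-682 library 2. The count that fell in MelanA was 2 without untreated library 2, and in B16F10 1 gene rose and 1 fell without SX-682 library 1. Cdh1, the E-cadherin gene, was at 4.62 CPM in untreated MelanA, 1.22 CPM in B16F0 and 0.531 CPM in B16F10, and its log2 fold changes with SX-682 were 0.14, -0.10 and 0.04 (adjusted p = 0.526, 0.763 and 0.962). Arhgef19, a planar polarity target of Grhl3 and the best expressed of these genes, fell by 0.29 in MelanA (adjusted p = 2.24e-05), rose by 0.29 in B16F0 (adjusted p = 1.23e-04) and was at 0.04 in B16F10 (adjusted p = 0.708). Its untreated level was 58.9 CPM in MelanA, 23.9 CPM in B16F0 and 12.2 CPM in B16F10. St14 was the other gene that rose in B16F0, named after its values were seen. There it was near 0, at 0.00744 CPM untreated and 0.167 CPM with SX-682, against 0.412 CPM and 0.560 CPM in MelanA.

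Factors of the epithelial to mesenchymal transition, which oppose GRHL2, were followed together with Vim, and those called moved upward. The list medians were 0.06 in MelanA, 0.75 in B16F0 and 0.45 in B16F10. The B16F0 median was the value of Zeb1, which was not called. Of all genes tested, 23.4%, 25.1% and 25.5% rose in these lines. Of 6 genes on the list 5 were tested, and 2 rose in MelanA, 3 in B16F0 and 3 in B16F10, Vim among them in each line. None fell in edgeR's quasi-likelihood test, with 1, 0 and 0 at an unadjusted p under 0.05 and 0, 0 and 0 by DESeq2, and 5 rose in B16F0 without untreated library 2. Snai2 rose by 0.40, 0.98 and 1.14 in MelanA, B16F0 and B16F10 (adjusted p = 3.19e-08, 1.45e-12 and 9.44e-17). Vim, the vimentin gene and a mesenchymal marker rather than an opposing factor, rose by 0.06, 0.24 and 0.45. Zeb2, a repressor that is normally present in melanocytes, rose by 0.29 in B16F0 and 0.39 in B16F10 and was at -0.06 in MelanA (adjusted p = 0.0883). Of 7 genes of the distal nephron, the other home of TFCP2L1, 4 were tested, and the best expressed, Jag1, fell by 0.19 in MelanA (adjusted p = 3.76e-04) and rose by 1.08 in B16F0 and 0.45 in B16F10. In B16F0 2 of these rose, Jag1 and Aqp3, and 0 fell. Aqp3 was near 0 there, at 0.00744 CPM untreated and 0.165 CPM with SX-682. In MelanA 0 of the nephron genes rose and 1 fell, and in B16F10 1 rose and 0 fell, all by edgeR's quasi-likelihood test. Each of these counts of 0 was also 0 at an unadjusted p under 0.05 and by DESeq2, and the rise count in B16F10 was 2 without untreated library 2. Among the melanocyte markers, 2 rose and 4 fell in MelanA, and all 7 fell in both B16 lines. Of all genes tested, 24.7% fell in MelanA, 25.0% in B16F0 and 25.3% in B16F10.

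**Figure D5:**
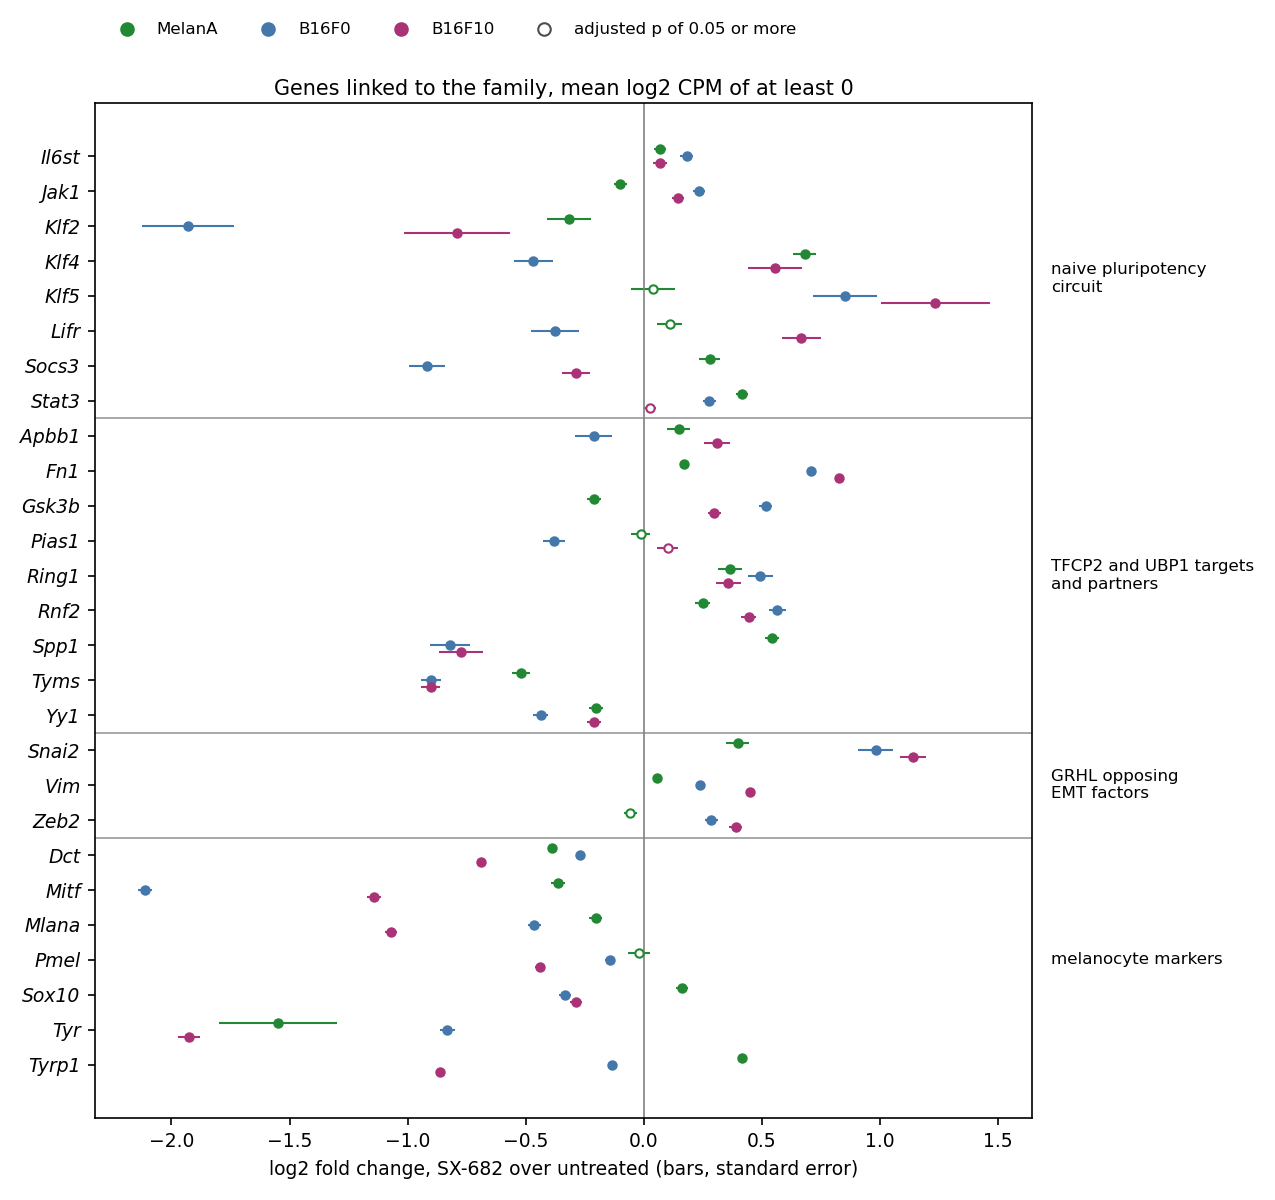
Log2 fold change with SX-682 over untreated for genes linked to the family with a mean log2 CPM of at least 0, in MelanA (green), B16F0 (blue) and B16F10 (purple), with bars for the standard error and open points for an adjusted p of 0.05 or more. Tyms is to the left of 0 and Fn1, Rnf2 and Snai2 to the right in all 3 lines, while Spp1 and Socs3 lie to the right in MelanA and to the left in the B16 lines.

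Markers of other cell types were followed beside these lists. Of all genes tested, 23.4% rose and 24.7% fell in MelanA, 25.1% and 25.0% in B16F0, and 25.5% and 25.3% in B16F10. Of 8 keratinocyte markers 3 were tested, and 0 rose and 1 fell in MelanA, while none was called in B16F0 or B16F10 by edgeR's quasi-likelihood test. Trp63 was the 1 that fell, from 2.30 to 0.725 CPM. In untreated B16F0 all 8 markers held 0 counts, so none could be called lower there. At an unadjusted p under 0.05, 0 rose in MelanA, 1 rose in B16F0 and 0 in B16F10, 0 fell in either B16 line, and DESeq2 called none higher in any line and none lower in the B16 lines. The count that fell in B16F10 was 1 without untreated library 1. Of 5 fibroblast markers 4 were tested, and 1 rose and 2 fell in MelanA, 1 rose and 1 fell in B16F0, and 1 rose and 0 fell in B16F10, where the number that fell was also 0 at an unadjusted p under 0.05 and by DESeq2, the first counts being from edgeR's quasi-likelihood test. Pdgfrb, a growth factor receptor of mesenchymal cells, was the 1 that rose, by 0.35 in MelanA, 0.50 in B16F0 and 0.64 in B16F10, and the last call was lost without untreated library 2. Lum and Dcn, matrix proteoglycan genes, fell in MelanA, with log2 fold changes of -2.41 (adjusted p = 1.35e-09) and -1.36 (adjusted p = 5.32e-04), and Pdgfra fell in B16F0, at -0.48 (adjusted p = 0.00255), in the same edgeR fit. Of 5 leukocyte markers 2 were tested, and 0 were called in any line, by edgeR at an adjusted or unadjusted p under 0.05 or by DESeq2.

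The genes most like each member across the 12 libraries were found among 11803 genes with a mean log2 CPM of at least 0, by Pearson's r of log2 CPM. The 12 points are 6 pairs of replicates from 3 lines, so that a high r mostly repeats the order of the groups, and no test was made. Tfcp2 was most like A130051J06Rik, Eef2 and Rpl9 (each r = 0.99), the latter 2 encoding parts of the translation machinery. Tfcp2l1 was most like Ddx42, Cdyl and Ccdc112 (each r = 0.99), and Ubp1 like Ndufb3, Tnfrsf19 and Tipin (each r = 0.97). Grhl1 was most like Clcf1 (r = 0.93), Zbtb11 (r = 0.90) and Gm48226 (r = 0.90), Grhl2 like Borcs6 (r = 0.97), Pot1a (r = 0.96) and Cfap97 (r = 0.96), and Grhl3 like Pcnp, Sept4 and Itgb3 (each r = 0.98). Between members, the pairs with r beyond 0.7 in size were Tfcp2l1 with Ubp1 (-0.81), Grhl3 (-0.75), Tfcp2 (-0.72) and Grhl2 (0.75), and Tfcp2 with Grhl3 (0.79).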

How the data were processed

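RNA of 12 libraries (3 lines, without and with SX-682, 2 libraries a group) was sequenced as total RNA. The authors deposited unnormalized read counts per gene for 34513 genes, with Ensembl identifiers, symbols and exonic lengths. The submitters' processing notes name cutadapt, STAR, DESeq2 and the build mm10; versions, the counting program and its strand setting are not given in the sources used here. Coordinates were the same in GENCODE M21 for 33821 genes, the 6 members among them. Groups and replicate numbers came from the sample labels, and the numbers name libraries only. The members and gene lists were chosen with earlier results of these data known.

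From the counts, CPM were computed with TMM scaling, and CPM per kb with the deposited exonic length. All 12 libraries were fitted together with edgeR 4.0.16 in R 4.3.3 (quasi-likelihood F-test, edgeR's expression filter, prior count 0.125, Benjamini-Hochberg adjustment over all 18338 genes at 0.05). The F statistic gave the standard errors, and at few counts these can be smaller than the counting error alone. The interaction test asked whether the response differed among the 3 lines. The biological coefficient of variation was 2.78%. Counting intervals are exact binomial 95% intervals on summed counts scaled by effective library size; they and the floor of 3 counts cover counting error only. All members are named, and of each other list up to 4 genes called in at least 1 line, by largest change, with a mean log2 CPM of at least 0; members near 0 may be named as such. For likeness, the 3 genes of highest r are named.

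Alternatives were DESeq2 1.42.0, scaling by RLE, omission of the filter, a minimum of 10 counts per library, a replicate block, a prior count of 2, a separate fit of each line and each library left out. Fits were tested on simulated data, in which changed genes with few counts were often missed. The simulation changed a small share of genes, by the same fold in every line, chosen above a limit of mean expected count. Its pass rule was limited to well counted genes after a wider rule was missed. It therefore does not cover members with few counts. Promoter windows came from RefSeq (GRCm38.p6), in which 5 of 6 members were matched; Grhl2 was not. Figures were drawn with matplotlib 3.10.9. Some genes of the lists are not reported here.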

Additional observations from a re-analysis of the deposited data

Results flagged for a closer look

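The response to SX-682 differed among the 3 lines for 2 members by edgeR's interaction test. For Tfcp2l1 the log2 fold changes spanned 4.26 between MelanA and B16F10 (adjusted p = 5.29e-05), with both SX-682 libraries above both controls in each line, and the B16F10 controls held 0 and 1 counts. The span was 3.43 without untreated B16F10 library 1 and 6.70 without library 2, and it passed in both cases. For Grhl3 the log2 fold changes spanned 4.23 between MelanA and B16F10 (adjusted p = 0.01), with SX-682 libraries below the controls in MelanA and above them in both B16 lines. The MelanA libraries held 10, 3, 0 and 1 counts, and the gene was not tested in MelanA when that line was filtered and fitted on its own. The Grhl3 difference did not pass without untreated MelanA library 1 (3.10, adjusted p = 0.167) or without SX-682 MelanA library 1 (3.41, adjusted p = 0.0639).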

How the results depend on the processing

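Some values of single members could not change in full: a prior count of 2 left the p-values as they were, and a span over the lines is never negative. Leaving out a library of a line outside a comparison touched that comparison only indirectly. The share that held is therefore partly fixed by these settings. Of the values of single members, 698 of 727 kept their direction and side of the threshold under the alternatives, 15 lost the call and 8 gained it. The other 6 changed sign, none of them called either way: Tfcp2 between the untreated B16 lines became -0.000566 with at least 10 counts in every library, Grhl1 between untreated B16F0 and MelanA became 0.000214 without a filter, and the rest were Grhl1 values that turned on single libraries. With each library left out, Grhl1 ranged from -0.34 to 1.13 for SX-682 in MelanA, from -0.57 to 0.89 for untreated B16F0 against MelanA and from -1.10 to 0.37 for untreated B16F10 against MelanA. Limiting the fit to genes with at least 10 counts in every library left Tfcp2, Ubp1 and Grhl1, and the members called became 2 in MelanA with SX-682, 2, 1 and 0 for untreated B16F0 against MelanA, B16F10 against MelanA and B16F10 against B16F0, and 0 for a differing response. The other 3 members were no longer tested, and for B16F10 against MelanA Ubp1 also lost its call. With each library left out, the members called with SX-682 were 4 to 5 in MelanA, 3 to 4 in B16F0 and 3 to 5 in B16F10, those called between untreated lines 4 to 4, 5 to 5 and 2 to 3 in the order above, and those with a differing response 1 to 3. RLE scaling and DESeq2 moved the median of all genes by at most 0.0039 on the log2 scale for SX-682 and by -0.0332 and -0.0333 for untreated B16F0 against MelanA, and by -0.0299 and -0.0302 for untreated B16F10 against MelanA.

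Replicate numbers recur in the untreated and the treated group of each line, but the labels give no pairing, and same-numbered libraries did not deviate together (r across genes of -0.028, -0.011 and -0.0089 for MelanA, B16F0 and B16F10). Under a replicate block, 5 members were called with SX-682 in MelanA, 4 in B16F0 and 4 in B16F10, and 2 had a differing response, and no call of a member changed.

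At a floor of 3 counts (0.0330 to 0.0623 CPM) and with 2 libraries a group, changes of Grhl1, Grhl2 and Grhl3, and of Tfcp2l1 in the B16 lines, are measured on few reads, and a missing call there does not show that a gene did not change.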
